A study of Mus musculus with 42 samples.

Results

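The antibody-precipitated (IP) fraction of testis RNA was compared between Pcif1 knockout (KO) and heterozygous (HET) mice, IP library against IP library and without division by the input. Of 27409 genes in the testes table, 11345 reached a signal of 10 in 3 or more of the 6 IP libraries and make up the comparison. Of these, 8803 reached 10 in all 6 libraries and 867 in exactly 3. There were 147 genes that passed through the KO libraries only and 214 through the HET libraries only, and since such a gene had to differ between the groups, these are counted but support nothing. Just inside the limit lay Lgals9 and Prkra, whose third-highest IP signal was 10.44, and just outside it Gramd3 and Cd33 at 9.911.

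PCIF1 is a nuclear methyltransferase that binds the tail of RNA polymerase II. It adds a methyl group to the N6 position of an adenosine that already carries a 2'-O-methyl group next to the mRNA cap, and the product is called m6Am. The enzyme acts only where transcription starts with an A. Antibodies raised against m6A, the internal mRNA mark written by METTL3 and METTL14, also bind m6Am. The m6Am-Exo-Seq assay therefore enriches capped RNA ends before the precipitation, so that the IP is directed to the cap-proximal mark.

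The series holds 42 libraries, and 12 of them come from m6Am-Exo-Seq of testes of adult mice, with 3 KO IP, 3 HET IP, 3 KO input and 3 HET input libraries. Both genotypes come from 1 mouse line with a small Cas9 deletion at an exon-intron border of Pcif1, by which the NPPF residues of the catalytic site are lost and translation ends early. HET animals also carry the deleted allele, so the control is not wild type. The allele was made in embryos of the B6D2F1/J hybrid of C57BL/6J and DBA/2J, and founders were crossed with C57BL/6J. The labels do not say whether RNA of several animals was pooled or which IP belongs to which input, and p-values measure the spread between these libraries, which may be technical.

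IP libraries held between 1816831 and 4364847 reads in KO and between 2689591 and 6574479 in HET, and the input libraries between 4151226 and 4971554 in KO and 4224175 and 4907380 in HET. Protein-coding genes took 89.8 to 90.4% of the KO IP reads and 90.8 to 91.3% of the HET IP reads. Mitochondrially encoded genes took 0.0254 to 0.0338% of the reads in KO IP and 0.0096 to 0.0235% in HET IP. The middle KO IP library held 2675006 reads and the middle HET IP library 4609741, although the ranges overlap, and 1 read in the KO libraries was worth a signal of 0.901 to 2.20, against 0.653 to 1.49 in HET. Each value is a signal, meaning a gene's reads over a scaling factor of its library. Such scaling hides a change shared by most genes. A gene lower or higher in the KO IP is so relative to the other genes of its library, not in absolute amount. Fold changes are on the log2(signal + 1) scale, where the change of a low gene comes out too small. A gene was called when limma's adjusted p (Benjamini-Hochberg, over all 11345 genes) was below 0.05.

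Pcif1 itself lay under the limit in testes. Its IP signal was 8.98, 0 and 6.31 in KO and 1.49, 5.88 and 8.04 in HET, and its input signal was 7.98, 6.75 and 1.64 in KO and 5.53, 7.39 and 10.4 in HET. The groups overlapped in both fractions. The deletion takes out a small part of the gene, so its total cannot check a label.

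Since the enzyme needs an A at the first transcribed base, the bases around the annotated start are shown for the 6 named genes with the smallest p in each direction that have a single listed start. Sequences are RefSeq's on GRCm38.p6, 20 bases before the start and 10 from it on, with the first transcribed base in capitals.
Clpb (lower in KO IP, chr7:101663731-101663760, + strand): gtcttcgaacgcgccgcggcAgccatgttg
Mlf1 (lower, chr3:67374077-67374106, + strand): cctgcgtcaagccccgccctAgtcgcgggc
Asrgl1 (lower, chr19:9135557-9135586, - strand): ttgctgcctggtggcttggcCagtttgaca
Tfb1m (lower, chr17:3557746-3557775, - strand): ccaccccctgcgcgccgtgcAcctttccag
Odf3 (lower, chr7:140847896-140847925, + strand): ctgggtcctaagctgctctaAgcccattcc
Cfap57 (lower, chr4:118620776-118620805, - strand): gcacttccggttttctcgttGctataggaa
Sec62 (higher in KO IP, chr3:30792856-30792885, + strand): ggacattccaaggctttgggGacgagctgt
Crebzf (higher, chr7:90442761-90442790, + strand): tttttgtgggcggggtgggcAgagagtaac
Nr2f6 (higher, chr8:71381943-71381972, - strand): gcccccgccccgcccccgccGgcgccgatg
Smad3 (higher, chr9:63757985-63758014, - strand): gttggactttccttcccggaGgcggcaccc
Setd2 (higher, chr9:110532577-110532606, + strand): cgccgccgcgatcggaccagCggccgcctc
Inha (higher, chr1:75507589-75507618, + strand): aggcagctctgggtatgaatGgcagcccca
Of the 6 lower genes 4 start with A, and of the 6 higher genes 1 does. These few were picked by p and do not give the size of the contrast. Over all 7665 tested protein-coding genes with a listed start, 29.4% start with A. The share is 36.8% of all lower and 24.6% of all higher genes. An annotated start is not a start measured in these testes, and a testis-specific transcript may begin elsewhere.

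In KO testes, 1680 genes had a lower IP signal than in HET testes and 1308 a higher one, which is 14.8% and 11.5% of the genes tested, or 26.3% together. These counts hold 148 lower genes that passed the limit through the HET libraries only and 71 higher genes that passed through the KO libraries only. By more than 1 log2 unit, 1215 were lower (10.7%) and 749 higher (6.6%). The median fold of all genes was 0.008, of the lower genes -1.30 and of the higher genes 1.07. KO and HET values did not overlap for 2504 genes with KO below HET (22.1%) and 2371 with KO above HET (20.9%). Counts rest in part on 1 library, HET IP replicate 3, without which 950 genes were lower and 704 higher, and without KO IP replicate 1 the number of higher genes was 827. Among genes with a mean IP signal of 233.5 or more, 21.6% were lower and 16.7% higher, and among those at 24.76 or less 8.21% and 4.79%.

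**Figure D1:**
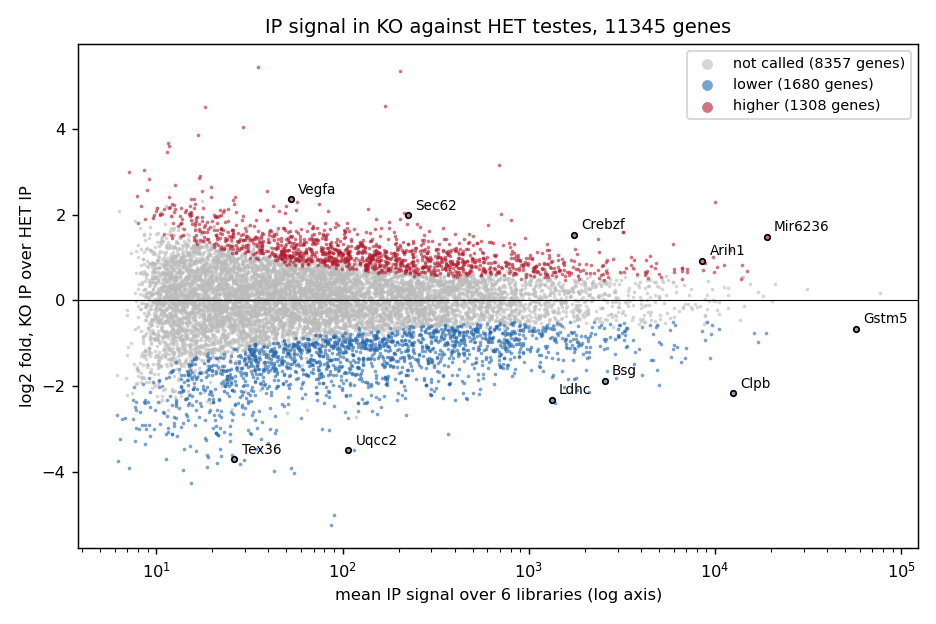
Log2 fold of KO IP over HET IP (vertical axis) against the mean signal over the 6 IP libraries (horizontal log axis), 1 point per gene. Blue points are the 1680 genes called lower, red points the 1308 called higher, grey points the 8357 not called, and circled genes are described in the text.

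The plot of fold against level shows called genes at every level, with Clpb standing apart at the abundant end. Clpb, a mitochondrial disaggregase, had IP signals of 4760, 4662 and 4111 in KO and 19140, 23800 and 18120 in HET. No KO library came near a HET library. The fold was -2.17 ± 0.171 (log2, SE, n = 3 per group, limma adjusted p = 2.88e-05). Its input was also lower, at 9654, 11770 and 11060 in KO and 15120, 13540 and 13890 in HET, a fold of -0.39 with adjusted p = 0.0116. The IP fold minus the input fold was -1.77 (limma adjusted p = 8.14e-05).

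Bsg, which encodes basigin, a membrane glycoprotein that sperm need for fertility, had IP signals of 1100, 1174 and 1010 in KO and 3574, 4378 and 4094 in HET. Its inputs were 4221, 4035 and 4218 in KO and 3993, 4418 and 4342 in HET, and these overlapped. The IP fold was -1.87 ± 0.168 (limma adjusted p = 5.43e-05) beside an input fold of -0.03. The same held for Cfap57, a cilium and flagellum protein, whose IP signal was 49.4, 50.7 and 56.8 in KO and 243.2, 245.5 and 302.0 in HET, with a fold of -2.31 in the IP and -0.11 in the input. Asrgl1, an asparaginase-like enzyme, had 657.1, 570.4 and 637.9 in KO IP and 2047, 1942 and 2214 in HET IP, a fold of -1.73 against -0.20 in the input. For these 3 genes the KO and HET IP groups lay far apart, and the input did not pass the test.

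The 10 lower genes with the largest folds among those with a mean IP signal of at least 50 and no overlap were AI987944, Uqcc2, Tfb1m, Ptpn14, Nme5, Rnf133, AA467197, Zpbp, Gnpda2 and Zfp943, with folds between -4.02 and -2.42. Uqcc2, an assembly factor of respiratory complex III, had IP signals of 11.97, 30.83 and 11.71 in KO and 170.1, 190.7 and 228.7 in HET, a fold of -3.50 ± 0.366 (limma adjusted p = 9.83e-05). Here the input moved with it, at 49.6, 50.3 and 56.5 in KO and 245.1, 153.3 and 217.5 in HET, a fold of -1.93. Tfb1m, a mitochondrial ribosomal RNA methyltransferase, behaved alike in both fractions, with folds of -3.48 in the IP and -1.70 in the input. AI987944 and Zpbp were called lower in the input too, while the inputs of the other 6 genes were not called. Uqcc2, Tfb1m and Zfp943 lie on chromosome 17. In the IP this chromosome as a whole had 83 of 580 genes lower and 79 higher, shares of 14.3% and 13.6% close to those of all genes. In the input it had 44 genes lower and 36 higher, the most higher genes of any chromosome. Only 0.665% of all genes were lower by more than 1 log2 unit in the input. Uqcc2, Tfb1m and Rsph3b, also on chromosome 17, were among them. Whether a part of this chromosome differs between the groups was not tested.

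Rnf133, an E3 ubiquitin ligase of spermatids, had an IP signal of 77.8, 66.1 and 36.0 in KO and 441.6, 292.6 and 395.8 in HET. Its input was 130.3, 128.2 and 133.4 in KO and 150.2, 152.4 and 174.4 in HET. The fold was -2.68 ± 0.297 in the IP (limma adjusted p = 0.000149) and -0.28 in the input, which was not called. Gnpda2, a glucosamine-6-phosphate deaminase, gave -2.57 in the IP and -0.33 in the input, and Nme5, a flagellar protein, -2.73 and -0.39.

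The highest mean IP signals among lower genes belonged to Gstm5, Actg1, Oaz3, Spata6 and Clpb. Gstm5, a testis glutathione transferase, had 47120, 46790 and 38580 in KO and 81950, 52190 and 77910 in HET, a fold of -0.66 ± 0.203 (limma adjusted p = 0.0295). Oaz3, the antizyme of spermatids, had 11220, 11120 and 10970 in KO and 15930, 32720 and 19550 in HET, with a fold of -0.96. Both inputs were called lower too, with folds of -0.30 and -0.28. The calls of Gstm5, Actg1 (cytoplasmic gamma-actin, fold -0.76) and Spata6 (a sperm connecting-piece protein, fold -0.75) were lost by limma without HET IP replicate 3, at adjusted p of 0.117, 0.0589 and 0.0589. Gstm5 also lost its call without any other single library but HET IP replicate 2, and Actg1 and Spata6 theirs without HET IP replicate 2, KO IP replicate 1 or KO IP replicate 2 (adjusted p 0.0531 to 0.113). Oaz3 and Clpb lost theirs under none of the settings tried.

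**Figure D2:**
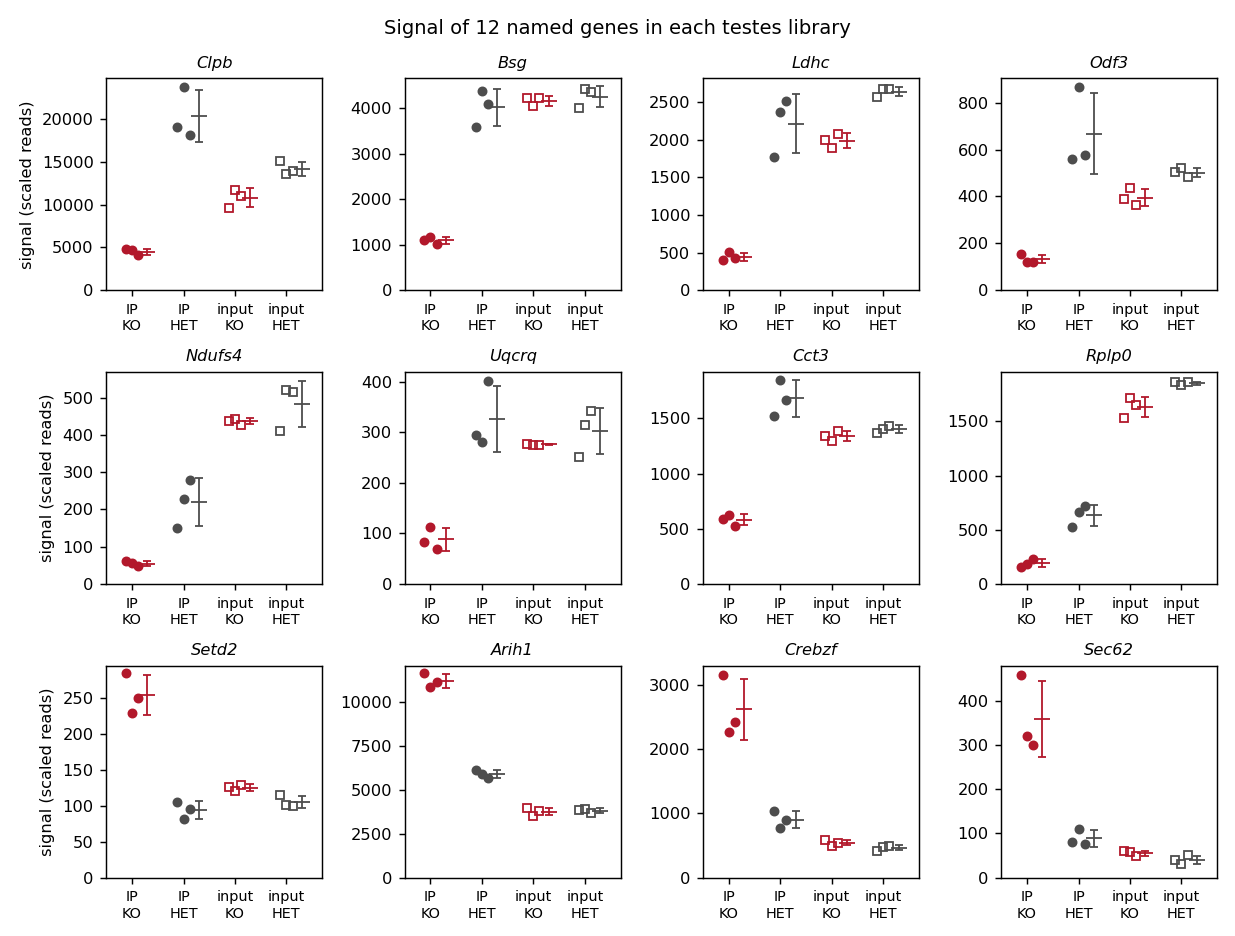
Signal (reads divided by the library factor, linear axis from 0) of 12 named genes in each testes library, in the order KO IP, HET IP, KO input and HET input. Filled circles are IP libraries, open squares inputs, red KO and grey HET, and the bar beside each group is the mean with its SD (n = 3). In every panel KO IP and HET IP values are apart, while the KO and HET inputs differ less or overlap.

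Many genes of the sperm flagellum and head fell in the KO IP. A list for the outer dense fibres and fibrous sheath, the sleeves around the sperm axoneme, had 14 of 20 tested genes lower and 0 higher. Its median fold was -0.965. The lower share of all tested genes is the 14.8% given above, and the median of all genes 0.008. The 14 are Odf3, Odf4, Akap3, Akap4, Cabyr, Ropn1, Gapdhs, Smcp, Tekt2, Tekt5, Cfap58, Spag16, Oaz3 and Rnf133. The list is loose, so 14 is not a count of proteins of these sleeves alone. Oaz3 and Rnf133 are spermatid genes and not structural proteins, and other tektins stand in the axoneme list. Odf3, an outer dense fibre protein, had 152.7, 121.1 and 121.6 in KO IP and 559.4, 866.0 and 578.0 in HET IP, a fold of -2.31 ± 0.228 (limma adjusted p = 7.23e-05). Its input was called lower too, with a fold of -0.35. In the input 5 of the 20 were called lower, with a median of -0.275, and 7 had an IP fold below the input fold by the test of the difference. Without HET IP replicate 3 the list had 8 lower genes.

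Acrosome and sperm-egg interaction genes had 13 of 22 lower and 1 higher, with a median of -0.961. Zpbp2, an acrosomal matrix protein, had 1099, 1392 and 1324 in KO IP and 3204, 4724 and 4111 in HET IP, a fold of -1.65 ± 0.190 (limma adjusted p = 0.000195). Adam2, a subunit of the fertilin complex, had 990.9, 953.6 and 895.6 in KO IP and 2224, 2978 and 2317 in HET IP, with a fold of -1.39. The input of Zpbp2 was called lower too, with a fold of -0.26, and that of Adam2 was not called. In the input 2 of 21 were lower, and by the test of the difference 10 had an IP fold below the input fold and 1, Acrbp, above it. Acrv1, an acrosomal vesicle protein picked after its values were seen, had the lowest fold of the list, at -3.98. It did not meet the conditions set for the largest folds above, a call, a mean IP signal of at least 50 and no overlap. Its fold therefore supports nothing here. The exception was Acrbp, the proacrosin-binding protein, at 2603, 1808 and 1589 in KO IP and 1202, 1343 and 1314 in HET IP, a fold of 0.61. Its call was lost without KO IP replicate 1 or 2 or HET IP replicate 1 or 3 (limma adjusted p 0.0654 to 0.17).

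Axoneme genes had 12 of 29 lower and 3 higher, with a median of -0.690. The 12 hold 4 dynein heavy chains (Dnah1, Dnah2, Dnah3 and Dnah17) and 2 tektins (Tekt3 and Tekt4). Meig1, which is needed to build the flagellum, had 2314, 2389 and 2819 in KO IP and 5099, 8724 and 6361 in HET IP, a fold of -1.39 ± 0.203 (limma adjusted p = 0.000705). Its input was called lower too, with a fold of -0.25. Rsph3b, a radial spoke gene on chromosome 17, fell alike in both fractions, with -1.98 in the IP and -1.95 in the input. It has a near-identical copy, as the Gstm and tubulin genes have, and how shared reads were assigned is not stated, so its values are uncertain. The 3 higher members were Rsph9, Ift140 and Ccdc39. Without HET IP replicate 3 none of these was called, and without KO IP replicate 1 or HET IP replicate 2 only 1 was. Without KO IP replicate 2 and without HET IP replicate 3 the list had 7 lower genes each.

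Sperm head cytoskeleton genes had 6 of 14 lower and 0 higher, with a median of -0.769. Cylc1, a calicin-associated protein of the sperm head, had 16.5, 6.61 and 10.8 in KO IP and 64.2, 84.9 and 75.9 in HET IP, against inputs of 21.3, 21 and 19.6 in KO and 19.8, 14.8 and 25.5 in HET. The fold was -2.70 in the IP and 0.07 in the input, and the difference was called (limma adjusted p = 0.00253). The 6 became 2 without KO IP replicate 1, 2 without KO IP replicate 2, 3 without HET IP replicate 2 and 2 without HET IP replicate 3. The Spata and Tex genes, grouped by their spermatogenesis- or testis-associated names, had 15 of 40 lower and 1 higher, with a median of -0.625. Tex36 stood lowest, at 1.50, 2.20 and 5.41 in KO IP and 34.3, 68.6 and 45.6 in HET IP, a fold of -3.71 beside -0.45 in the input. It passed the limit through the HET libraries only and so had to differ.

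Spermatid transcription regulators had 7 of 19 lower and 1 higher, although their median of -0.044 was near that of all genes and changed sign under some settings. Crem, the master regulator of spermatid genes, had 1631, 1216 and 1108 in KO IP and 2564, 2109 and 2165 in HET IP, a fold of -0.80 ± 0.190 (limma adjusted p = 0.00869), and Gtf2a1l, a germ-cell form of TFIIA, gave -1.47. Both inputs were called lower too, with folds of -0.38 and -0.42. The list had 3 lower genes without KO IP replicate 1, 2 without HET IP replicate 2 and 3 without HET IP replicate 3. The higher member, Piwil1, a piRNA-binding protein with a fold of 0.64, lost its call without KO IP replicate 1 or 3 or HET IP replicate 3 (limma adjusted p 0.0523 to 0.0876).

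Of other germ-cell lists, testis-specific serine kinases, which act in late spermatids, had 2 of 9 lower and all 9 folds below 0, with a median of -0.581 in the IP and -0.431 in the input, where 3 of 9 were lower. Without HET IP replicate 3 only 1 was lower in the IP. Of 10 CatSper sperm calcium channel genes 1 was lower (Catsperb, -1.54) and 2 were higher (Catsperg1, 1.19, and Catsper2, 0.68, whose call was lost without KO IP replicate 1 at a limma adjusted p of 0.0527). Catsperg1 had 2559, 2145 and 2692 in KO IP and 1146, 946.9 and 1140 in HET IP, with no overlap. Protamines, transition proteins and their regulators gave 1 of 13 lower, Brdt, a testis bromodomain protein, at 139.2, 138.7 and 144.2 in KO IP and 381.9, 399.7 and 483.3 in HET IP. Meiosis genes had 1 of 28 lower and 2 higher, and their median was -0.025, near that of all genes. The lower one, Spo11, passed the limit through the HET libraries only and so had to differ. Its call was lost without KO IP replicate 1 or HET IP replicate 2 or 3 (limma adjusted p 0.0575 to 0.0955). Among glycolytic genes 4 of 19 were lower and 0 higher. They include Ldhc, the lactate dehydrogenase of germ cells, at 395.1, 504.3 and 426.2 in KO IP and 1766, 2362 and 2508 in HET IP (fold -2.31, input -0.41). Hk1, a hexokinase, had -1.38 in the IP and -0.46 in the input. The inputs of Ldhc and Hk1 were both called lower, and in the input 5 of the 19 glycolytic genes were lower and 0 higher.

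Few markers of somatic and early germ cells were lower. Sertoli cell genes had 0 of 11 lower and 3 higher, with a median of 0.096 in the IP and 0.086 in the input. None of the 21 listed genes was at 0 in every IP library. In the input 2 of 10 were higher, and the summed input signal was 2748 to 2885 in KO and 2308 to 2399 in HET, without overlap. Wt1, a Sertoli transcription factor, had 495.4, 347.9 and 466.7 in KO IP and 161.1, 184.2 and 151.0 in HET IP, and its input was called higher too. Inha, the inhibin alpha subunit, had 91.3, 83.7 and 63.1 in KO IP and 13.4, 23.5 and 19.7 in HET IP, with a fold of 2.03 beside -0.06 in the input. Spermatogonial genes had 0 of 10 lower and 2 higher, Id4 and Zbtb16, with a median of 0.428 in the IP and 0.433 in the input. By limma, Id4 lost its call without KO IP replicate 1 or 2 or HET IP replicate 1 or 3 (adjusted p 0.0698 to 0.139) and Zbtb16 without KO IP replicate 3 (0.0626). The summed input signal of that list was 496.6 to 513.0 in KO and 378.7 to 408.3 in HET, and that of the outer dense fibre list 50720 to 53130 in KO and 58560 to 62520 in HET. Neither pair of ranges overlaps. Fewer cells of a type and less RNA per cell cannot be told apart in bulk tissue, and the part of either in the IP folds was not tested. The steroidogenic Leydig markers Star, Cyp11a1, Cyp17a1 and Insl3 lay under the limit. Leydig cell genes had 1 of 8 lower (Gstm1, a glutathione transferase) and 1 higher (Aldh1a1, a retinaldehyde dehydrogenase), and peritubular and vascular genes 0 of 6 lower and 1 higher. The summed IP signal of the Sertoli list was 2389 to 2887 in KO and 2172 to 2551 in HET. It was 1069 to 1328 and 1502 to 1797 for the Leydig list, and 695.5 to 841.2 and 504.2 to 553.2 for the spermatogonial list. Much of the Leydig sum is Gstm1 alone, at 601.7, 649.7 and 608.2 in KO IP and 1323, 1335 and 1078 in HET IP. The median IP fold of the Leydig list was 0.062, so its sum does not stand for the list. The higher peritubular gene, Dcn (decorin), lost its call without any single library but KO IP replicate 1 (limma adjusted p 0.0656 to 0.168). For macrophages and blood cells 2 genes were tested and 0 called.

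**Figure D3:**
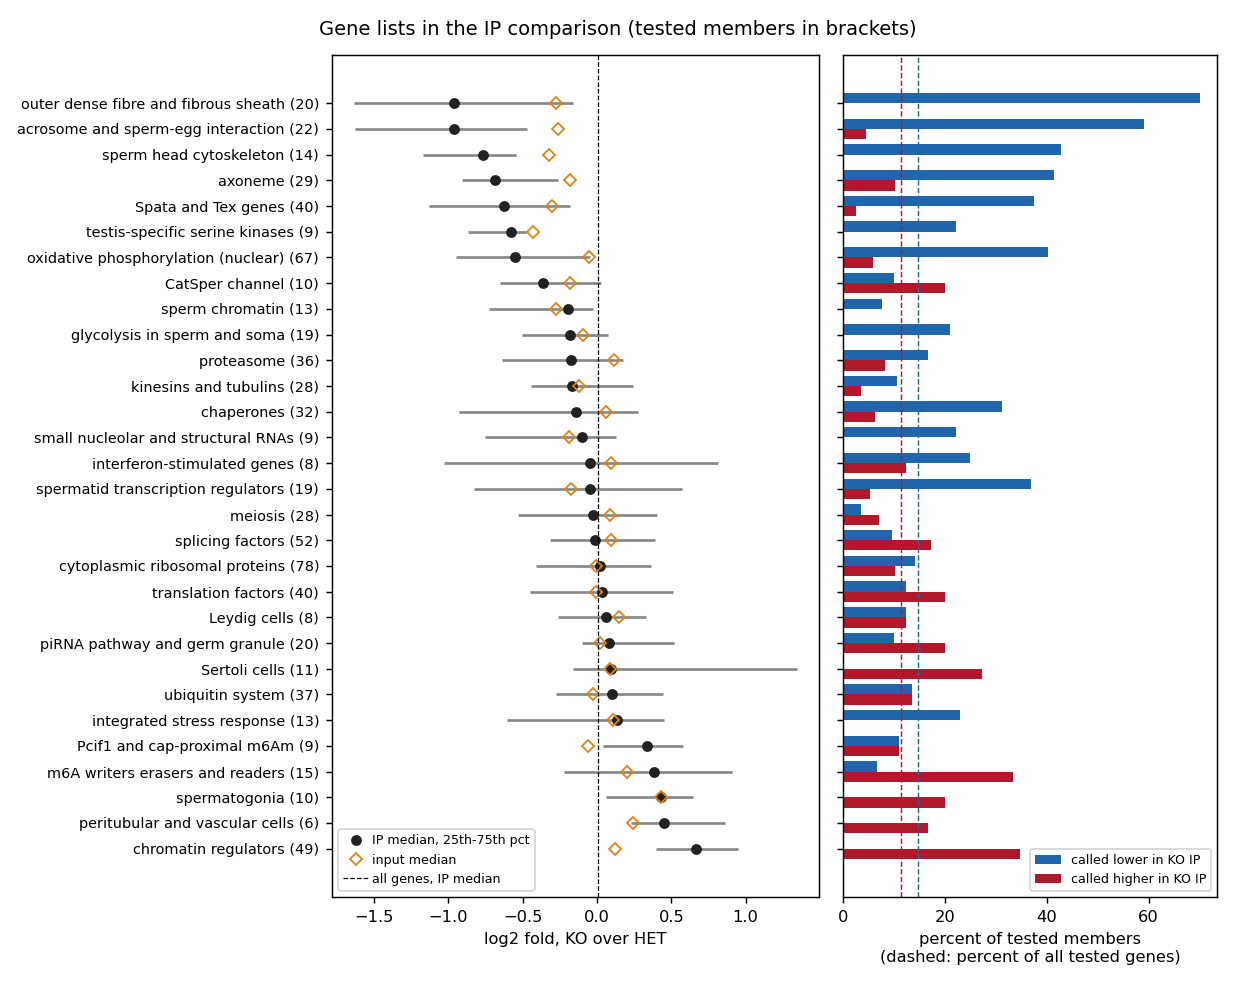
Gene lists ordered by their median IP fold, with the number of tested members in brackets and lists of 6 or more tested members shown. On the left, black circles are the IP median with a line over the 25th to 75th percentile of the members, open diamonds the input median, and the dashed line the median of all genes. On the right, bars give the percent of members called lower (blue) and higher (red) in the KO IP, and dashed lines the percent of all genes, 14.8 and 11.5. Sperm structure and oxidative phosphorylation lists lie at the left and chromatin regulators at the right.

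Nuclear-encoded genes of oxidative phosphorylation, the respiratory chain and ATP synthase, were often lower in the IP and rarely called in the input. Of 67 tested genes 27 were lower and 4 higher in the KO IP, with a median of -0.552. In the input 2 were lower and 1 higher, with a median of -0.055, and by the test of the difference 19 had an IP fold below the input fold. Complex I (NADH dehydrogenase) had 15 of 29 lower and 0 higher, complex III 3 of 8 lower and 0 higher, and complex IV (cytochrome oxidase) 5 of 12 lower and 1 higher. ATP synthase genes were split, with 4 of 14 lower and 3 higher and a median of -0.037, and none of the 4 complex II genes was called. The grouping by complex was made after the values were seen. Without HET IP replicate 3 the list had 17 lower genes, and without KO IP replicate 3 it had 2 higher ones.

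Ndufs4, a complex I subunit, had IP signals of 61.4, 55.1 and 47.8 in KO and 150.7, 227.3 and 279.6 in HET, and its inputs overlapped, at 438.6, 444.0 and 427.9 in KO and 411.9, 521.0 and 514.6 in HET. The IP fold was -1.94 ± 0.276 (limma adjusted p = 0.000606). Uqcrq, a complex III subunit, had 82.3, 112.3 and 69.4 in KO IP and 295.4, 281.5 and 402.0 in HET IP, with a fold of -1.89 beside -0.12 in the input. Atp5a1, the catalytic-head alpha subunit of ATP synthase, moved the other way, at 245.5, 191.6 and 185.6 in KO IP and 80.6, 97.3 and 75.9 in HET IP (fold 1.28). Of the 4 tested genes of the mitochondrial genome 3 were higher, the transfer RNA gene mt-Tw, mt-Atp6 with a fold of 1.34 and mt-Nd4 with 1.33, and mt-Co3 was not called. The inputs of mt-Atp6 and mt-Nd4 were called higher too, with folds of 0.64 and 0.67, and that of mt-Tw was not tested.

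Other housekeeping groups were split, and their counts stand beside 14.8% lower and 11.5% higher of all tested genes. Chaperones had 10 of 32 lower and 2 higher, among them Cct3, a subunit of the cytosolic chaperonin, at 589.7, 627.6 and 528.0 in KO IP and 1520, 1851 and 1670 in HET IP, with a fold of -1.53 beside -0.07 in the input. The higher member Hsp90b1, a chaperone of the endoplasmic reticulum, gave 1.18, and the other, Hspa5, lost its call without any single library but HET IP replicate 1 (limma adjusted p 0.061 to 0.0901). Proteasome genes had 6 of 36 lower and 3 higher, shares near those of all genes. Psma4, a core-particle subunit, had 98.8, 107.9 and 116.2 in KO IP and 280.5, 276.2 and 310.9 in HET IP. The proteasome counts were 2 lower and 1 higher without KO IP replicate 1, 3 and 1 without HET IP replicate 3, and 6 and 1 without KO IP replicate 3. Cytoplasmic ribosomal protein genes, many of which start with a pyrimidine, had 11 of 78 lower and 8 higher, shares near the background, and a median of 0.018 that was below 0 with TMM or median-ratio scaling, with edgeR, with DESeq2 and without KO IP replicate 3 or HET IP replicate 1 or 3. Over all lists, 13 had a median that changed sign under some setting, most of them close to 0, and none of the sperm structure, oxidative phosphorylation or chromatin lists did. Rplp0, of the ribosomal stalk, had 157.2, 182.8 and 234.3 in KO IP and 528.1, 662.2 and 717.4 in HET IP, a fold of -1.73. Rpl30, of the large subunit, had 699.0, 572.6 and 524.4 in KO IP and 223.8, 268.4 and 290.4 in HET IP, a fold of 1.19 against -0.23 in the input. The ribosomal list had 7 lower genes without KO IP replicate 1 or 2, and 5 lower and 5 higher without HET IP replicate 3. Splicing factors had 5 of 52 lower and 9 higher, and 2 and 5 without HET IP replicate 3, 2 and 6 without KO IP replicate 1, and 3 lower without KO IP replicate 2 or 3 or HET IP replicate 2. Translation factors had 5 of 40 lower and 8 higher, with 1 lower without HET IP replicate 3 and 3 lower without KO IP replicate 1 or 2.

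Chromatin regulators were the list with the highest median apart from the mitochondrially encoded genes, at 0.666. Of 49 genes 0 were lower and 17 higher, against 0 and 0 of 46 in the input, where the median was 0.121. They include remodeller subunits (Arid1a, Arid2, Chd1, Chd3, Smarca2 and Smarca4), histone methyltransferases (Kmt2b and Setd2), the acetyltransferase Ep300 and the DNA methyltransferase Dnmt1. Setd2, the H3K36 methyltransferase, had 284.4, 229.0 and 249.6 in KO IP and 105.9, 81.6 and 95.6 in HET IP, with inputs of 125.8, 120.0 and 129.3 in KO and 114.6, 101.6 and 100.4 in HET. Its fold was 1.42 ± 0.227 in the IP (limma adjusted p = 0.00116) and 0.24 in the input. Chd3, a chromatin remodeller, had 514.9, 484.5 and 584.7 in KO IP and 252.1, 245.5 and 204.6 in HET IP, a fold of 1.17. The number of higher genes was 8 without KO IP replicate 1, 9 without KO IP replicate 2, 10 without KO IP replicate 3, 11 without HET IP replicate 2 and 6 without HET IP replicate 3.

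The 10 higher genes with the largest folds under the same conditions were Vegfa, Ski, Smad3, Aqp5, Sfi1, Sec62, Trim11, Nr2f6, Pim3 and Mir7225, with folds between 1.81 and 2.36. Several act in signalling. Vegfa, the vascular endothelial growth factor, had 98.8, 112.3 and 54.1 in KO IP and 25.4, 20.2 and 7.15 in HET IP, and inputs of 25.7, 14.3 and 13.9 in KO and 20.6, 12.9 and 16.7 in HET. Smad3, a transducer of TGF-beta signals, had 94.3, 88.1 and 66.7 in KO IP and 17.9, 14.4 and 18.8 in HET IP, and its input lay under the limit. Ski, a repressor of SMAD proteins, gave 2.25 in the IP and 0.01 in the input. Sec62, part of the protein translocation machinery, had 456.5, 319.3 and 300.0 in KO IP and 80.6, 109.7 and 75.9 in HET IP, a fold of 2.00 ± 0.248 (limma adjusted p = 0.000305). Sfi1, a centrosome protein, had a larger fold in the input (2.45) than in the IP (2.04), and Aqp5 and Nr2f6 were also called higher in the input.

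Among higher genes the highest mean signals belonged to Mir6236, Cdc34, Calm2, Ube2k and Ube2m, and 3 of these encode ubiquitin- or NEDD8-conjugating enzymes. Ube2m, the NEDD8 one, had 17940, 15360 and 15890 in KO IP and 6429, 4927 and 11680 in HET IP, a fold of 1.19. Cdc34, which works with SCF ubiquitin ligases, had 19090, 16230 and 19410 in KO IP and 11200, 10250 and 12760 in HET IP, a fold of 0.68 whose call was lost with no filter (limma adjusted p = 0.0528). The whole ubiquitin list had 5 of 37 lower and 5 higher, shares near those of all genes. It had 3 and 3 without any 1 of the KO IP libraries and 1 and 2 without HET IP replicate 3. Ube2k lost its call without any single library but HET IP replicate 2 (limma adjusted p 0.0862 to 0.138), and with TMM or median-ratio scaling and edgeR. Arih1, an ariadne ubiquitin ligase, had 11660, 10860 and 11130 in KO IP and 6136, 5913 and 5687 in HET IP, with a fold of 0.92 ± 0.156 (limma adjusted p = 0.00155) and -0.02 in the input. Crebzf, a bZIP transcription factor, had 3155, 2270 and 2425 in KO IP and 1037, 768.6 and 902.3 in HET IP, with a fold of 1.53 beside 0.22.

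Enzymes and readers of RNA methylation were part of the measured set. Of 15 m6A writers, erasers and readers 1 was lower and 5 were higher, with a median of 0.383 in the IP and 0.200 in the input. Mettl3, the catalytic m6A methyltransferase, had 149.7, 244.4 and 128.8 in KO IP and 105.9, 63.4 and 67.9 in HET IP. Its input was higher to the same extent, at 159.5, 211.5 and 166.9 in KO and 85.4, 81.3 and 79.7 in HET, so the folds were 1.11 and 1.11. Fto, the demethylase that acts on m6Am and m6A, had 1513, 1698 and 1183 in KO IP and 1053, 985.5 and 942.5 in HET IP, a fold of 0.54, with -0.04 in the input. Ythdc1, a nuclear reader, gave 0.98 in the IP and 0.04 in the input. Mettl16 was the lower member, at 5.99, 17.6 and 23.4 in KO IP and 41.8, 49.0 and 60.8 in HET IP. Without HET IP replicate 3, Mettl3 (adjusted p = 0.0697), Fto (0.147), Alkbh5 (0.0827) and Mettl16 (0.0714) lost their calls by limma, and the list had 1 higher gene. Mettl3 also lost its call without KO IP replicate 2, Fto without every other library but KO IP replicate 3, and Alkbh5 without HET IP replicate 2 or KO IP replicate 1 or 3. The list had 2 higher genes without KO IP replicate 1, 3 without KO IP replicate 2 and 2 without HET IP replicate 2. Mettl14, Cmtr1 (the cap 2'-O-methyltransferase) and Ythdf2 were not called, with folds of -0.70, 0.58 and 0.50. Among the cap genes, Ncbp2, a subunit of the cap-binding complex, was lower (-1.22, input -0.06) and Dxo, a decapping exonuclease, higher (1.33, input 0.65).

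RNA classes differed. Of 428 lincRNA genes 135 were lower (31.5%) and 18 higher (4.21%), with medians of -0.633 in the IP and -0.272 in the input, and 37 of 336 tested were lower in the input. The counts by class include any genes that passed the limit through the KO or HET libraries only and so had to differ. How many these are in each class was not counted. Antisense genes had 75 of 326 lower (23%), 48 without HET IP replicate 2 and 41 without HET IP replicate 3. Their medians were -0.376 in the IP and -0.25 in the input, where 21 of 267 tested were lower. The counts of lower lincRNA genes were 89 without HET IP replicate 2 and 64 without HET IP replicate 3. Genes annotated as microRNAs went the other way, with 3 of 90 lower and 33 higher (36.7%, or 20 genes without KO IP replicate 1 and 22 without HET IP replicate 3), and a median of 0.663 in the IP and 0.073 in the input. Mir7225 had 209.5, 123.3 and 101.8 in KO IP and 44.75, 30.04 and 42.88 in HET IP. How reads were assigned by strand is not stated. Such loci often lie within other genes, and antisense genes overlap a partner, so their reads may not be told apart from those of the other gene.

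Input calls accompanied a minority of the IP calls. In the input, 678 of 11278 genes were lower (6.01%) and 374 higher (3.32%), or 9.33% together. These counts changed with the libraries kept: 184 and 91 without HET input replicate 3, 347 and 109 without KO input replicate 2, 348 and 121 without KO input replicate 3, 427 and 194 without HET input replicate 1, and 340 and 168 without HET input replicate 2. Without KO input replicate 1 they rose to 937 and 508. An input that was not called is therefore not shown to be unchanged. Of the 1680 genes lower in the IP, 366 were lower in the input (21.8%), 10 higher, 1245 not called (74.1%) and 59 not tested. Of the 1308 higher in the IP, 148 were higher in the input (11.3%), 0 lower, 1080 not called (82.6%) and 80 not tested. The lower genes had a median fold of -1.30 in the IP and -0.258 in the input, and the higher genes 1.07 and 0.215. Over 10531 genes tested in both fractions the folds correlated with Pearson's r of 0.475, as a description, since genes are not independent and all values come from the same 12 libraries.

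**Figure D4:**
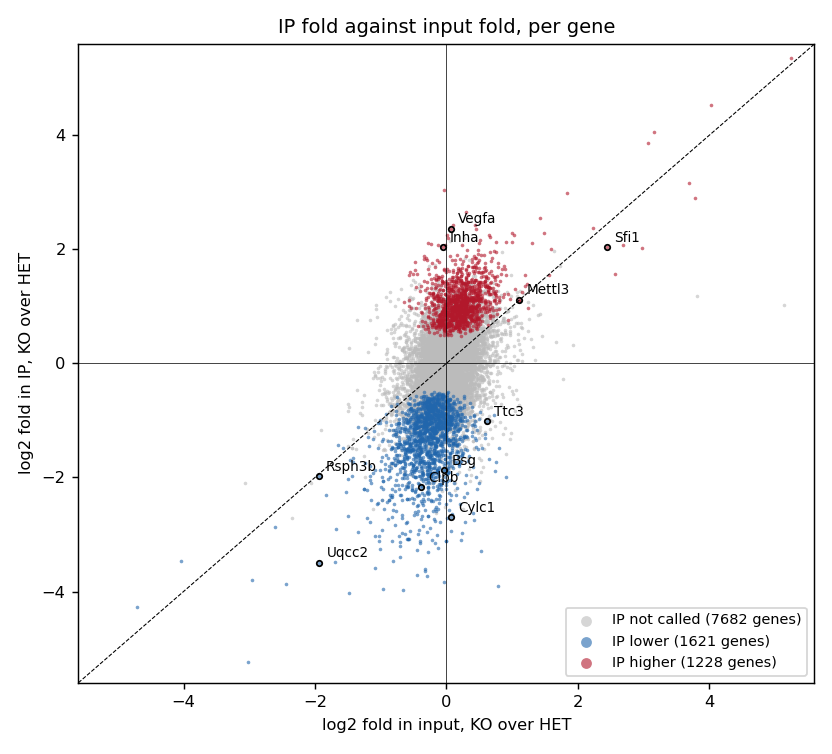
Log2 fold in the IP (vertical axis) against log2 fold in the input (horizontal axis), KO over HET, 1 point per gene tested in both fractions, coloured by the IP call as in the plot of fold against level. The dashed line marks equal folds, and 2 genes lie beyond the horizontal axis. Rsph3b, Mettl3 and Sfi1 sit near the line, while Bsg, Cylc1, Vegfa and Inha moved in the IP with an input fold near 0.

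A fit over all 12 testes libraries tested whether the IP fold differed from the input fold. It called 774 of 12387 genes with an IP fold below the input fold (6.25%) and 461 above it (3.72%), or 9.97% together. Leaving out 1 input library lowered these to between 404 and 515 and between 143 and 298, and without HET IP replicate 1 there were 718 above. Of the 1680 genes lower in the IP, 720 were among the 774 (42.9%), and of the 1308 higher ones 404 among the 461 (30.9%). For the remaining genes the IP change was not shown to differ from that of the input. Among the 366 genes lower in both fractions, 113 passed this test, and the named ones with the smallest IP p in both fractions are Clpb, Ldhc, Mlf1 and Vit. Mlf1, a myeloid leukemia factor, had 636.1, 887.5 and 812.7 in KO IP and 2831, 4264 and 3189 in HET IP, with folds of -2.13 in the IP and -0.53 in the input. Vit, which encodes vitrin, gave -2.31 and -0.44.

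The first transcribed base and the promoter composition were then compared over the called classes, since neither entered the choice of genes. The set of RefSeq promoters used here has no entries for chromosome 18. It holds a promoter for 7665 protein-coding genes, which is 80.6% of the 9510 tested. Outside chromosome 18 it covers 82.3% of those tested, 81.0% of the lower and 80.9% of the higher ones. Of 1044 lower genes 36.8% started with A (Wilson 95% interval 33.9 to 39.8%), of 903 higher genes 24.6% (21.9 to 27.5%) and of 5718 genes not called 28.9% (27.7 to 30.1%). Over all 7665 of these genes the share was 29.4%. Across all 32851 promoters of the set, with further starts and untested genes included, it was 34.4%. With the base before the start included, CA stood at the start of 24.6% of the lower, 15.0% of the higher and 19.5% of the genes not called. It stood at the start of 19.6% of the 7665 genes and of 19.2% of all promoters of the set. The intervals cover counting only, since genes are not independent.

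The share with A was 35.6% (32.3 to 39.0%) for lower genes whose input was not called and 39.2% (33.2 to 45.5%) for those whose input was lower too. Classes made from the input alone gave 35.0% of 446 lower and 25.1% of 255 higher genes, the same order of classes as in the IP. Classes made from the difference between IP and input gave 36.0% of 528 lower and 22.8% of 338 higher genes. By start base, 17.0% of the genes with A were lower and 9.8% higher, against 11.9% and 12.8% of those with G, and the medians were -0.06 with A and 0.08 with G, small beside the spread within each group.

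Promoter GC content, over 250 bases before and 50 after the start, moved with the calls as well. Its median was 57.0% for lower genes, 64.7% for higher genes and 61.3% for genes not called. With the genes split into 4 bins of GC content, the lowest bin (22.0 to 54.7%) had 21.9% lower and 7.6% higher genes, and the highest bin (68.0 to 89.3%) 6.1% lower and 18.6% higher. Within the lowest bin, A stood at the start of 49.0% of the lower genes (44.3 to 53.7%), 39.6% of the higher (32.1 to 47.6%) and 34.5% of the genes not called (32.0 to 37.0%). Within the bins of 55.0 to 61.0% and 61.3 to 67.7% the intervals of lower genes overlapped those of genes not called, with 34.4% and 20.6% for lower genes against 32.8% and 25.3%. Within the highest bin the higher genes had the lowest share, 15.2% (11.8 to 19.5%), against 23.1% of the genes not called. The part of GC content in the IP calls was not tested.

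**Figure D5:**
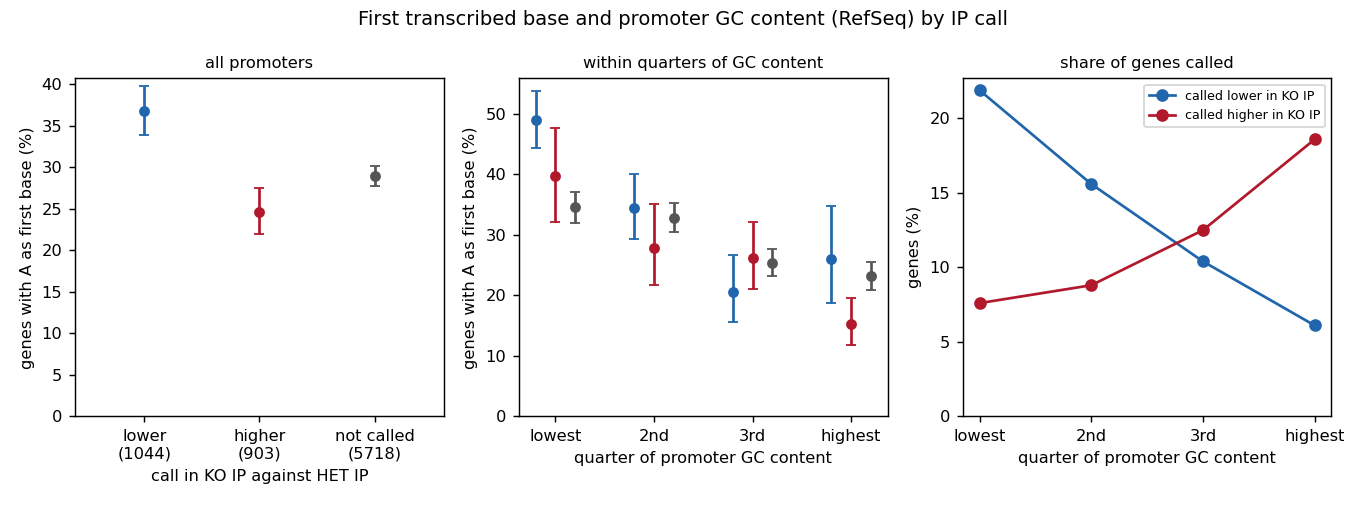
Left and middle, percent of protein-coding genes whose RefSeq transcript starts with A, for genes lower (blue), higher (red) and not called (grey) in the KO IP, over all promoters and within 4 bins of promoter GC content, with Wilson 95% intervals. Right, percent of genes called lower (blue) and higher (red) in each bin. Lower genes start with A more often over all promoters and in the lowest bin, and the share of lower genes falls with GC content while that of higher genes climbs.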

How the data were processed

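The authors deposited 1 testes table with a signal per gene and library. In 100% of values this signal equalled a whole number of reads times the library's value per read (tolerance 0.01), so reads were recovered for edgeR 4.0.16 and DESeq2 1.42.0, used as alternatives. The submitters' processing notes list STAR, Salmon 0.12.0, DESeq, DESeq2 1.25.10 and R 3.6.2 without their roles. No source used here states the genome build, annotation or strand setting, and printed coordinates are RefSeq's.

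Genes reaching 10 in 3 or more IP libraries were fitted with limma 3.58.1 (R 4.3.3, empirical Bayes with trend) on log2(signal + 1), with Benjamini-Hochberg adjustment at 0.05. This was the test named for scaled values. Inputs had the same fit, and the difference between IP and input folds came from 1 model over 12 libraries. Scripts were tested on simulated data. Alternatives were scaling, pseudocount, filter, tool, samples in the fit and left-out libraries.

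Groups came from the labels, and replicate numbers follow accession order. The members, gene lists and tests were chosen with earlier results of these data known. Named genes leave out predicted gene models and follow a rule: 10 per direction with the largest fold among non-overlapping genes with a mean IP signal of at least 50, 5 per direction with the highest level, up to 2 per list and direction by p, 8 methylation genes, 4 called in opposite and 4 in the same direction in the input, and 4 per direction by the IP-minus-input difference. It gave 132 genes, of which the text describes part, and list members named beyond it complete or illustrate a count. Where RefSeq lists more than 1 start, the first was used.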

Additional observations from a re-analysis of the deposited data

Results flagged for a closer look

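In 10 genes the IP and the input moved in opposite directions, lower in the KO IP and higher in the KO input. The test of the difference passed in each, but genes picked by opposite calls were nearly bound to pass it, so it adds no support. The 4 with the smallest IP p are Spint2, Snx7, Bclaf1 and Ttc3. Bclaf1, an RNA-binding protein of transcript processing, had 181.1, 156.4 and 184.7 in KO IP and 413.2, 237.1 and 407.4 in HET IP, with inputs of 303.1, 414.7 and 438.5 in KO and 298.0, 244.8 and 269.2 in HET, a difference of -1.47 (limma adjusted p = 0.00673). Snx7, a sorting nexin, differed by -1.45 (limma adjusted p = 0.00253), Spint2, a serine protease inhibitor, by -1.46 (limma adjusted p = 0.00433), and Ttc3, a ubiquitin ligase, by -1.63 (limma adjusted p = 0.00615). For all 4, each KO library lay below each HET library in the IP and above it in the input. This also follows in part from how they were picked, and 22.1% of all genes had KO below HET without overlap in the IP. The IP calls of Bclaf1 (adjusted p = 0.0699), Snx7 (0.068) and Ttc3 (0.0721) were lost by limma without HET IP replicate 3, and that of Ttc3 also without KO IP replicate 2 (0.0593).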

How the results depend on the processing

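No paired analysis was possible because the labels carry no replicate numbers. With the spread taken over all 12 libraries, 2191 genes were called higher in the IP. Leaving out 1 library gave 950 to 1594 lower and 704 to 1321 higher genes in the IP, 184 to 937 and 91 to 508 in the input, and 404 to 1008 and 143 to 718 for the difference between IP and input folds. Input scaling by library size gave 581 higher genes, and no filter gave 257 genes above for the difference. Under library size scaling of the IP the median fold was 0.064, with 1546 lower and 1509 higher genes, and with TMM scaling -0.012, with 1703 and 1226. edgeR called 1774 and 1315, DESeq2 1741 and 1328. Of 128 named genes called, 35 lost the call without at least 1 library and 10 under another setting, and 0 changed direction in the 17 settings tried. All 10 (Acrbp, Actg1, Alkbh5, Cdc34, Dcn, Fto, Gstm5, Isg20, Spata6 and Ube2k) lost it without a filter. Depth limits low genes most: 3 reads were worth a signal of up to 6.607 in KO IP libraries and 4.475 in HET IP libraries. Genes with 1 listed start, a choice made after seeing the data, gave 37.6% A for lower and 22.4% for higher genes.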
